A study of Arabidopsis thaliana with 12 samples.

Results

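The genes described here are 10 members of the fasciclin-like arabinogalactan protein family of Arabidopsis thaliana, FLA1 (AT5G55730), FLA2 (AT4G12730), FLA6 (AT2G20520), FLA7 (AT2G04780), FLA8 (AT2G45470), FLA9 (AT1G03870), FLA10 (AT3G60900), FLA11 (AT5G03170), FLA12 (AT5G60490) and FLA13 (AT5G44130). They were taken by these identifiers from the deposited tables, which list 19721 loci in all, and each of the 10 was found in every gene table. The genes were chosen by name with results of these tables known, and the deposited levels and fold changes of all 3 comparisons are counted as used in that choice. The values below are therefore a description of the genes and carry no test of the choice. The authors' p- and q-values are printed as deposited.

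Arabinogalactan proteins are cell surface proteins whose protein chain is rich in hydroxyproline and carries large branched sugars of galactose and arabinose. FLA proteins also contain fasciclin domains, folds that mediate adhesion between cells or to the wall in animals, and many are tied to the plasma membrane by a lipid anchor. In plants they are known for roles in cell expansion, in root growth under salt stress and in the cellulose-rich secondary wall of stems. Within the family, FLA1, FLA2, FLA8 and FLA10 have a pair of fasciclin domains, and FLA6, FLA7, FLA9, FLA11, FLA12 and FLA13 have a single one.

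PolyA RNA was sequenced from seedlings, aged 2 weeks and grown on agar plates, in 4 groups of 3 samples. The groups were the mutant rbm25-1 treated with abscisic acid (ABA) at 0.1 mM for 6 hours, wild type treated in the same way, untreated rbm25-1 and untreated wild type, all on the ecotype Col-0 as the labels give it. ABA is the hormone of drought and seed dormancy and was sprayed, and the labels name no mock spray for the untreated groups. RBM25 belongs to the RNA-binding proteins linked to splicing, and the labels do not describe the mutation itself.

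The deposited gene tables hold 1 value per group in FPKM (fragment counts scaled by transcript length and by mapped fragments) and none per sample. No spread between replicates can stand beside a value, the depth is unknown, and the order of 2 close levels cannot be set against replicate error. RBM25 (AT1G60200) had 1.46 FPKM in rbm25-1 and 9.26 FPKM in wild type with ABA, and 2.55 FPKM in rbm25-1 and 9.15 FPKM in wild type without it, in the authors' deposited tables. The leaf markers CAB1, RBCS1A, LHCB2.1 and RCA and all 7 root hair markers were present, and of the 5 pollen genes AGP6 was listed, at no more than 0.839 FPKM. Leaf and root RNA were thus measured together, and fewer cells of a type and less RNA per cell cannot be told apart.

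Most of these genes are compact. Coding sequences ranged from 741 bases in FLA11 to 1275 bases in FLA1, and 8 of the 10 have no intron in any transcript of the RefSeq annotation (TAIR10.1). FLA1 is interrupted within its coding sequence, and FLA7 has an intron in the 5′ untranslated region of 1 of its 2 annotated transcripts. The closest coding sequences were those of FLA8 and FLA10, with 81.1% identical positions in a global alignment. Next came FLA9 and FLA13 with 76.6%, then FLA6 and FLA9 with 64.2%, while FLA11 and FLA12 had 61.0%.

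The identity of FLA8 and FLA10 bears on their values, since a read that lies within a shared stretch could be counted for either gene. The longest run shared by both transcripts had 53 bases and lies in the coding sequence of FLA8 at chr2:18743355-18743407 and of FLA10 at chr3:22500134-22500186, on the minus strand in each case. It is printed from the RefSeq genome, 5′ to 3′ on the coding strand.
FLA8 and FLA10: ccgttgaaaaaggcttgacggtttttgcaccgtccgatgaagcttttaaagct
FLA8 is the more abundant of this pair by far in all groups, so that the FLA10 values are those most open to such reads. How far reads were shared was not tested.

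In untreated wild type the 10 genes spanned a wide range of levels per length. FLA9 was highest at 226.6 FPKM, followed by FLA13 at 111.6, FLA8 at 79.3, FLA7 at 68.1 and FLA2 at 61.2 FPKM in the authors' deposited tables. FLA1 had 21.0 FPKM, FLA11 15.1, FLA6 9.47, FLA12 5.98 and FLA10 1.48 FPKM in the same group of the authors' deposited tables. FLA9 alone made up 37.8% of the summed FPKM of the 10 genes, which was 599.7. The sum was 209.7 FPKM in rbm25-1 with ABA and 202.5 FPKM in wild type with ABA, against 523.1 FPKM in untreated rbm25-1. With ABA the order changed: FLA13 was the highest in both genotypes, with 29.7% of the sum in rbm25-1 and 39.0% in wild type.

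**Figure D1:**
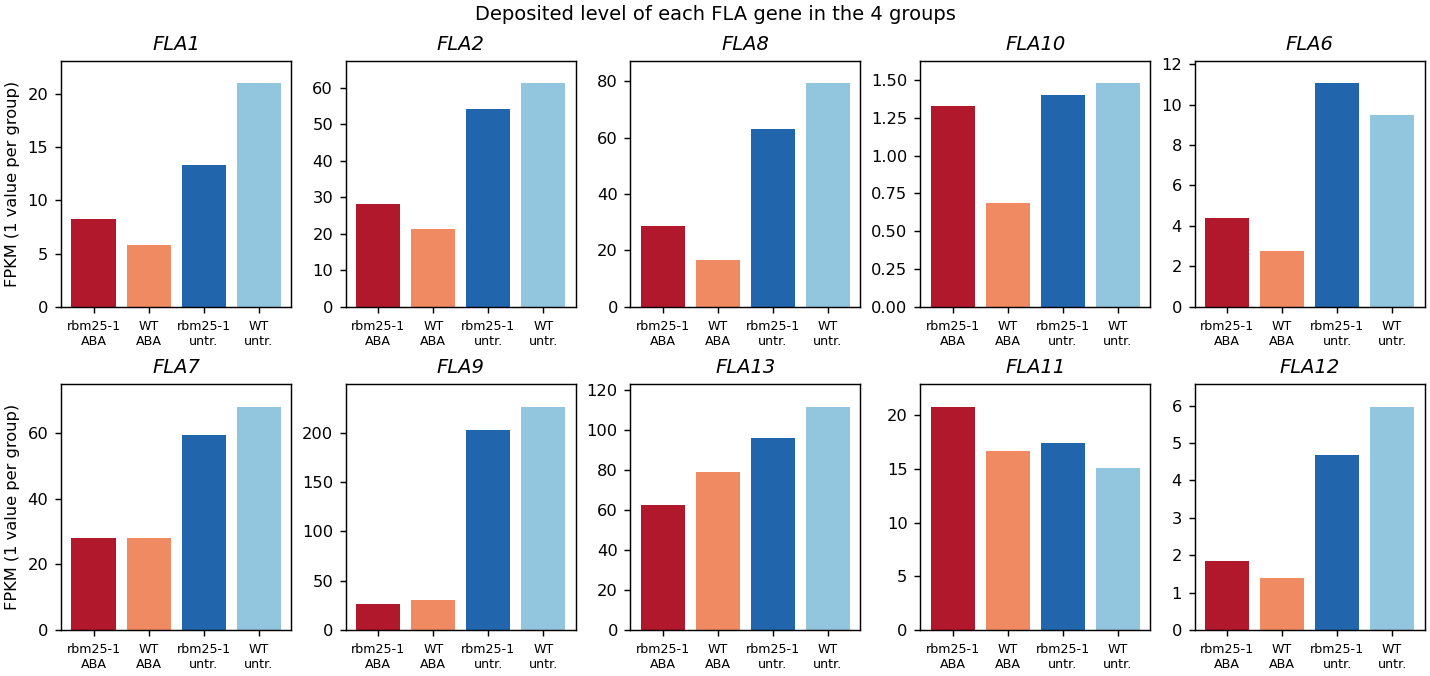
Deposited level of each of the 10 genes, with a bar for each group in FPKM (1 value per group, no error available, y axes from 0 and scaled per gene). FLA9 stands at 25.9 and 30.3 FPKM in rbm25-1 and wild type with ABA, against 202.8 and 226.6 FPKM in the untreated groups, while FLA11 lies between 15.1 and 20.8 FPKM in all 4.

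The comparison of wild type with ABA and untreated wild type asks how these genes respond to the hormone, and 9 of the 10 fell. In that deposited table of the authors 56.1% of all 19647 loci were called at q under 0.05, with 30.1% lower and 26% higher. The members' median log2 fold change was -1.64, beside -0.07 over all 18492 loci that are a single gene with a finite log2 value. Since the members were proposed with these values in view, nothing is read from that contrast. The fall was at least 2-fold in 8 genes, where 11.6% of all loci were called lower with that size. Of the 9 genes, 8 carried the smallest q that the tables hold, 0.000132.

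FLA9 changed most. It had 30.3 FPKM in wild type with ABA, against 226.6 FPKM untreated, or log2 -2.90 in the authors' deposited table, so that 13.4% of the untreated level remained. Only 217 of the 18492 single-gene loci had a lower log2 fold change there. FLA8, known also as AGP8, fell to 16.5 FPKM with ABA, against 79.3 FPKM untreated (log2 -2.27 in the authors' deposited table). FLA12, a gene tied to stem secondary walls, fell to 1.39 FPKM with ABA, against 5.98 FPKM untreated (log2 -2.10 in the authors' deposited table).

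The middle of the range was held by genes of both domain types. FLA1, a gene with a role in shoot formation from cultured tissue, had 5.86 FPKM with ABA and 21.0 FPKM untreated (log2 -1.84 in the authors' deposited table). For FLA6 the authors' deposited table gives 2.78 FPKM with ABA and 9.47 FPKM untreated (log2 -1.77). FLA2 had 21.4 FPKM with ABA and 61.2 FPKM untreated, and FLA7 had 28.0 and 68.1 FPKM in the same groups of the authors' deposited table (log2 -1.52 and -1.28). These 4 genes kept between 27.9% and 41.1% of the untreated level. FLA10, the lowest in level, had 0.688 FPKM with ABA and 1.48 FPKM untreated (log2 -1.10, q = 0.00171 in the authors' deposited table), and its log2 fold change was -0.55 with 1 added to each FPKM.

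FLA13 and FLA11 stood at the other end. FLA13 had 79.1 FPKM with ABA and 111.6 FPKM untreated, or log2 -0.50 in the authors' deposited table, which is 70.9% of the untreated level. FLA13 and FLA9 thus had unlike responses although their coding sequences are the second closest among the 10. FLA11, which with FLA12 is known for cellulose deposition and stiffness of stems, had 16.6 FPKM with ABA and 15.1 FPKM untreated (log2 0.14, q = 0.643 in the authors' deposited table). A q of that size does not show that FLA11 was unaffected, and its log2 fold change was 0.50 after the length and GC correction.

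The FLA11 value has a limit of its own. FLA11 (minus strand, 752750 to 753657 on chromosome 5 in RefSeq) overlaps the end of P58IPK (AT5G03160, plus strand), the homolog of a chaperone gene, by 56 bases, and both were deposited under the locus from 750105 to 753657. Whether the counting used strand is not given in the sources used here, so that reads in the overlap cannot be assigned with certainty. P58IPK had 18.0 FPKM with ABA and 12.4 FPKM untreated in wild type (log2 0.54, q = 0.0530 in the authors' deposited table).

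Markers of some seedling tissues moved with these falls. All 4 leaf markers fell with ABA in wild type, with a summed level of 8789 FPKM with ABA and 23336 FPKM untreated in the authors' deposited tables. Of 7 root hair markers 6 fell and 1 rose, with sums of 50.5 FPKM with ABA and 106.6 FPKM untreated. Of 5 xylem markers in that table (XCP1, XCP2, CESA4, CESA7 and CESA8) none was called by the authors' Cuffdiff q, and none had an unadjusted p under 0.05. Their sum was 67.1 FPKM with ABA and 66.5 FPKM untreated. PLT1, a root meristem gene, fell to 0.189 FPKM with ABA, against 0.640 FPKM untreated. The part of tissue makeup in the FLA values was not tested.

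**Figure D2:**
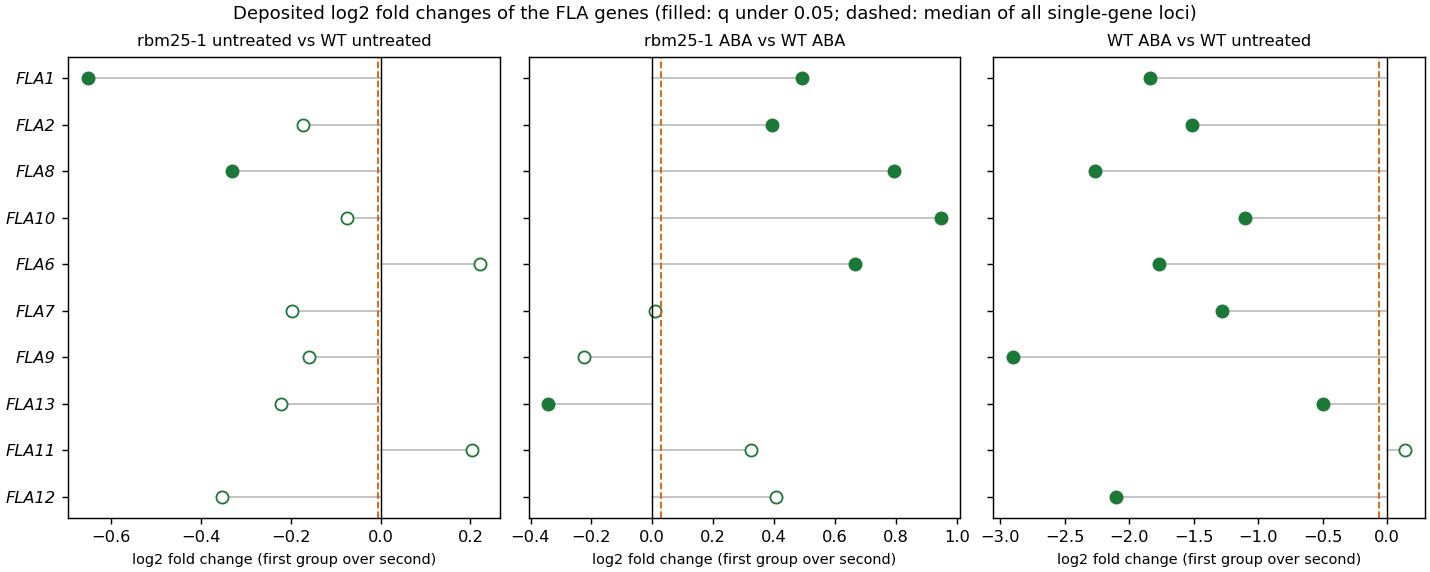
Deposited log2 fold change of each gene (x axis, first group over second, a different range in each panel) in the 3 comparisons, filled where the authors' q was under 0.05, with the median of all single-gene loci as a dashed line. With ABA in wild type 9 of the 10 genes lie below 0 and are filled, and between rbm25-1 and wild type with ABA 5 are filled above 0 and 1, FLA13, below it.

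Without ABA, rbm25-1 and wild type differed little in these genes. Of the 10 genes 2 were lower in rbm25-1 and 0 higher by the authors' deposited Cuffdiff q, where 13.3% of 19327 loci were called, 7.2% lower and 6.15% higher. Neither gene differed 2-fold, where 0.673% of all loci were called lower with that size and 0.735% higher. FLA1 fell to 13.4 FPKM in untreated rbm25-1, against 21.0 FPKM in untreated wild type (log2 -0.65, q = 0.000132 in the authors' deposited table). FLA8 fell to 63.0 FPKM, against 79.3 FPKM (log2 -0.33, q = 0.0150 in the authors' deposited table), a call that is lost when the p-values are adjusted within this table alone (q = 0.0985), where 5.83% of loci pass.

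The other 8 genes did not pass, with deposited log2 fold changes between -0.35 for FLA12 and 0.22 for FLA6. FLA9 had 202.8 FPKM in untreated rbm25-1 and 226.6 FPKM in untreated wild type (log2 -0.16, q = 0.277), and FLA13 had 95.6 and 111.6 FPKM (log2 -0.22, q = 0.118) in the authors' deposited table. FLA2 and FLA7 had log2 -0.17 and -0.20, FLA10 -0.08 and FLA11 0.20 in the authors' deposited table. The members' median was -0.18, beside -0.01 over all single-gene loci. Of 4 leaf markers 2 were higher in untreated rbm25-1 and 0 lower, with sums of 29785 FPKM in untreated rbm25-1 and 23336 FPKM in untreated wild type in the authors' deposited tables. Of 7 root hair markers 1 was higher and 0 lower, and of 5 xylem markers 0 were called by Cuffdiff, with 0 at an unadjusted p below 0.05.

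Under ABA the mutant had higher levels than wild type for 5 of the 10 genes and a lower level for 1. All 4 members with a pair of fasciclin domains were among the higher ones, and of the 6 with a single domain FLA6 was higher and FLA13 lower. This grouping covers the 10 members only. Of the 5 other FLA genes in that table, not grouped by domains, 2 were higher and 3 not called, with a median log2 of 0.16. In that deposited table of the authors 31.9% of 19244 loci were called, 17.7% higher and 14.3% lower. The members' median log2 fold change was 0.40, beside 0.03 over all single-gene loci. None of the 6 called genes reached a 2-fold difference, where 1.3% of all loci were called higher with that size and 1.79% lower.

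Among the genes with a pair of fasciclin domains the sizes ranged from log2 0.39 to 0.95. FLA8 had 28.5 FPKM in rbm25-1 with ABA and 16.5 FPKM in wild type with ABA (log2 0.79, q = 0.000132 in the authors' deposited table). FLA1 had 8.24 and 5.86 FPKM in the same groups (log2 0.49, q = 0.00368 in the authors' deposited table). For FLA2 the values were 28.1 FPKM in rbm25-1 with ABA and 21.4 FPKM in wild type with ABA (log2 0.39, q = 0.00477 in the authors' deposited table). FLA10 had the largest log2 fold change of the 4, 0.95, at the low levels of 1.33 FPKM in rbm25-1 and 0.688 FPKM in wild type (q = 0.00536 in the authors' deposited table). The sizes depend on the scaling: less the median of loci of like transcript length and GC content they were 0.27 for FLA1, 0.17 for FLA2, 0.57 for FLA8 and 0.67 for FLA10, and with 1 added to each FPKM FLA10 had log2 0.46. On the deposited log2 scale the median was 0.64 for the 4 genes with a pair of domains and 0.17 for the 6 with a single one. With 1 added to each FPKM these medians were 0.45 and 0.13. After the length and GC correction, applied to single genes and medians after their values were seen, the median was 0.42 for the genes with a pair and 0.22 for those with a single domain, with FLA6 at 0.83, above all 4 genes with a pair.

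The genes with a single domain were mixed. FLA6 had 4.42 FPKM in rbm25-1 with ABA and 2.78 FPKM in wild type with ABA (log2 0.67, q = 0.00745 in the authors' deposited table). FLA13 fell to 62.4 FPKM in rbm25-1 with ABA, against 79.1 FPKM in wild type with ABA (log2 -0.34, q = 0.0124 in the authors' deposited table). The other 4 genes were not called. FLA12 had 1.84 FPKM in rbm25-1 with ABA and 1.39 FPKM in wild type with ABA (log2 0.41, q = 0.237), and FLA11 had 20.8 and 16.6 FPKM (log2 0.32, q = 0.262) in the authors' deposited table. FLA7 had 28.2 FPKM in rbm25-1 with ABA and 28.0 FPKM in wild type with ABA (log2 0.01), and FLA9 had 25.9 and 30.3 FPKM (log2 -0.22, q = 0.146) in the authors' deposited table. FLA9 and FLA13, the most alike in coding sequence among the single-domain genes, were the only members below 0 on the deposited scale in this comparison, with FLA7 at -0.02 once centred on the median of all loci. After the length and GC correction FLA13 stood at log2 -0.23.

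In the same comparison 4 of 6 xylem markers, 3 of 7 root hair markers and 3 of 4 leaf markers were higher in rbm25-1 in the authors' deposited table, and 0 of them lower. The summed xylem level was 92.4 FPKM in rbm25-1 with ABA and 67.1 FPKM in wild type with ABA, over the 5 genes listed in all groups. P58IPK, next to FLA11, was called higher as well, with 26.9 FPKM in rbm25-1 and 18.0 FPKM in wild type with ABA (log2 0.58, q = 0.00497 in the authors' deposited table). The part of these markers in the FLA values was not tested.

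The level of a group was the same in both tables that hold it for each member, which allows the ABA response of rbm25-1 to be set beside that of wild type as a ratio of deposited values, with no test. The median log2 ratio of the 10 genes was -1.01 in rbm25-1 and -1.64 in wild type, beside -0.01 and -0.06 over the 17586 single-gene loci with a value above 0 in every group. FLA10 kept 94.7% of its untreated level in rbm25-1 and 46.6% in wild type. FLA1 kept 61.7% in rbm25-1 and 27.9% in wild type, and FLA8 45.3% and 20.8%. FLA9 kept 12.8% in rbm25-1 and 13.4% in wild type.

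The difference between the log2 ratios, rbm25-1 minus wild type, was 1.14 for FLA1, 1.12 for FLA8, 1.02 for FLA10 and 0.56 for FLA2, the genes with a pair of domains. For the others it was 0.76 for FLA12, 0.44 for FLA6, 0.21 for FLA7, 0.12 for FLA11, -0.06 for FLA9 and -0.12 for FLA13. This difference combines the mutant comparisons with and without ABA and shares their samples, so that it adds no evidence of its own, and with 1 value per group it could not be tested.

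**Figure D3:**
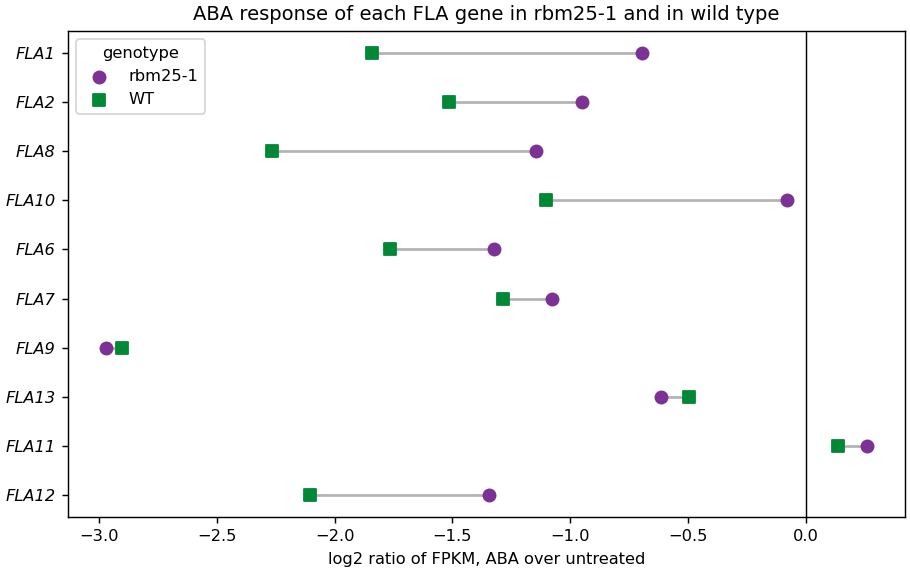
Log2 ratio of FPKM with ABA over untreated (x axis) for each gene in rbm25-1 (circles) and in wild type (squares), from deposited group values with no error available. The ratio is nearer to 0 in rbm25-1 for FLA1 (-0.70 against -1.84), FLA8 (-1.14 against -2.27) and FLA10 (-0.08 against -1.10), and nearly equal for FLA9 (-2.97 against -2.90).

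The sequence just before each gene was searched for letters linked to ABA and to xylem. The window was the 250 bases upstream of the RefSeq gene start, searched on both strands. The core of the ABA-responsive element, ACGTG, was in 0 of the 10 windows and in 22.9% of 27443 windows of protein-coding genes. The G-box CACGTG, which contains that core, was in 0 of 10 and in 6.49%. The TATA box letters TATAAA were in 5 of 10 and in 47.3%. These matches describe the letters only, and a window without them says nothing on any factor.

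The tracheary element-regulating element, known from genes of water-conducting cells, was searched by its consensus and was present in 0.368% of all windows and in 1 of the 10, that of FLA11. The match lies 204 to 194 bases before the gene start, at chr5:753844-753868 with 7 bases on each side. It is shown because FLA11 was the 1 member not called with ABA in wild type, with capitals for the match on the minus strand.
FLA11: actctccCTTCAAAGCAAtgtctct
The same stretch lies within the annotated end of the next gene, AT5G03180.

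The windows of FLA9 and FLA13 are shown in full. Among the members these genes were the most abundant in untreated seedlings. They are a closely related pair whose log2 fold changes with ABA in wild type were -2.90 and -0.50 in the authors' deposited table. FLA9 is read from chr1:983545-983794 on the minus strand and FLA13 from chr5:17760615-17760864 on the plus strand, both from the RefSeq genome and ending at the base before the gene start. Neither held a match to the 4 motifs, so that no letter is in capitals.
FLA9: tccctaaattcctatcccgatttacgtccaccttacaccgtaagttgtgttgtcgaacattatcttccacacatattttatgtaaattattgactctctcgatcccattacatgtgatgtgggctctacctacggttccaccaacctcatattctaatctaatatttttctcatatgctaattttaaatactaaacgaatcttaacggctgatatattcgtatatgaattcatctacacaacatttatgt
FLA13: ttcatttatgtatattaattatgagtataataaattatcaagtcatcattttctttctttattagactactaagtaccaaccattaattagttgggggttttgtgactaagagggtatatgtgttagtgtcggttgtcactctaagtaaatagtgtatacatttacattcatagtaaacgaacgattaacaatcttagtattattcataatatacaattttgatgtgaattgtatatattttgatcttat

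Splicing of these genes was nearly absent from the deposited splicing tables. Only FLA1 and FLA7 have an annotated intron, so that for the other genes the absence says nothing on rbm25-1 or ABA. Each table held 1 event under a member's identifier, an alternative acceptor deposited under FLA7 together with AT2G44520 (COX10). Its intron, from 18380487 to 18380586 on chromosome 2, lies within COX10 and not within FLA7, so that it is no FLA event by position. Its percent spliced in (PSI, the share of reads that use the included form) was 3.64% in rbm25-1 with ABA and 7.32% in wild type with ABA (unadjusted p = 0.0555, adjusted p = 0.796) in the authors' deposited table.

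By position, a search added after the values were seen, 1 event did fall within a member, and it was deposited under another identifier, AT2G28310. It is a tandem acceptor of the intron in the 5′ untranslated region of FLA7, which starts at 1677040 on chromosome 2 and ends at either 1677468, the annotated end, or 3 bases further on. The acceptors are shown with each AG in capitals, from chr2:1677455-1677480 on the plus strand.
FLA7: ttcttgtaatgcAGtAGgagagttca
The PSI of the annotated acceptor was 94.0% in untreated rbm25-1 and 96.3% in untreated wild type (p = 0.733, adjusted p = 0.977), and 100% in wild type with ABA (p = 0.207 against untreated, adjusted p = 0.988) in the authors' deposited tables. Among the 11170 usable events of rbm25-1 against wild type with ABA, 0 lay within the 10 genes by position. Adjustment was by the Benjamini-Hochberg method over all events of a table, where 0.0102%, 0.0179% and 0.00952% of events passed for untreated rbm25-1, rbm25-1 with ABA and wild type with ABA.

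Related genes gave a frame for the 10. Of the other FLA genes with that symbol in the annotation, 5 of 10 were in the gene tables, FLA4 (SOS5), FLA15, FLA16, FLA17 and FLA18. With ABA in wild type 4 of these 5 fell, with a median log2 of -0.84 in the authors' deposited table. AT1G15190, of the family but without an FLA symbol in the annotation, is not among the 5. It was called higher with ABA in wild type (log2 0.66 in the authors' deposited table). FLA16 had 6.13 FPKM with ABA and 13.9 FPKM untreated (log2 -1.18), and FLA4, needed for root growth under salt, had 6.76 and 12.6 FPKM (log2 -0.90) in the authors' deposited table. In rbm25-1 with ABA, FLA4 (log2 0.43) and FLA16 (0.43) were higher than in wild type, and without ABA none of the 5 was called by the authors' Cuffdiff q, with 0 at an unadjusted p under 0.05.

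Arabinogalactan protein genes without fasciclin domains moved in both directions. Of 29 AGP and AG peptide genes in the table of wild type with ABA, 18 fell and 6 rose, with a median log2 of -0.61. The largest called changes were AGP30 at log2 -3.60, AGP5 at 3.16, AGP22 at -2.91 and AGP4 at -2.34 in the authors' deposited table. In rbm25-1 with ABA 11 of 28 were higher and 5 lower than in wild type (median 0.10), led by AGP30 (log2 1.98), AGP5 (1.61), AGP19 (1.07) and AGP41 (-1.04) in the authors' deposited table. Without ABA 2 of 28 were higher, AGP30 (1.25) and AGP40 (1.06), and 6 lower, among them AGP26 (-0.59) and AGP16 (-0.41) in the authors' deposited table.

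The enzymes that modify these proteins and the cellulose machinery were counted in the same way. The glycosyltransferase genes GALT3, GALT4, GALT5, GALT6, HPGT1, HPGT2 and HPGT3 were left out, as their symbols did not match the annotation. Of 10 prolyl hydroxylase and glycosyltransferase genes 4 rose and 2 fell with ABA in wild type (median log2 0.13). The fucosyltransferase gene FUT4 was at 0.89 and the hydroxylase gene P4H5 at 0.72 in the authors' deposited table. In that list GLCAT14C, for a glucuronosyltransferase, was lower in rbm25-1 both without ABA (log2 -0.39) and with it (-0.60), and no other gene was called by the authors' deposited q. Of 12 primary wall cellulose genes 7 fell with ABA in wild type (median -0.31), with CTL1 at log2 -0.59 and KOR1 at -0.54 in the authors' deposited table. In rbm25-1 with ABA 3 of the 12 were higher, CSI1 (0.35), CESA5 (0.33) and CESA6 (0.29), and in untreated seedlings 0 were called by Cuffdiff in the authors' deposited table, where 0 had an unadjusted p below 0.05.

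Secondary wall genes, the setting in which FLA11 and FLA12 are best known, moved in both directions with ABA in wild type. Of 16 genes listed for wild type with ABA 3 rose, MYB46 (log2 0.83), COBL4 (0.58) and TED6 (0.50), and 1 fell, the laccase gene LAC4 (-0.84), with a median of 0.14 in the authors' deposited table. In rbm25-1 with ABA 4 of 17 were higher than in wild type, LAC4 (0.71), LAC17 (0.58) and the cellulose synthase genes CESA4 (0.47) and CESA8 (0.40), and none lower by the authors' deposited q. In untreated seedlings 0 of 15 were called by Cuffdiff, and 1 had an unadjusted p below 0.05 in the authors' deposited table.

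**Figure D4:**
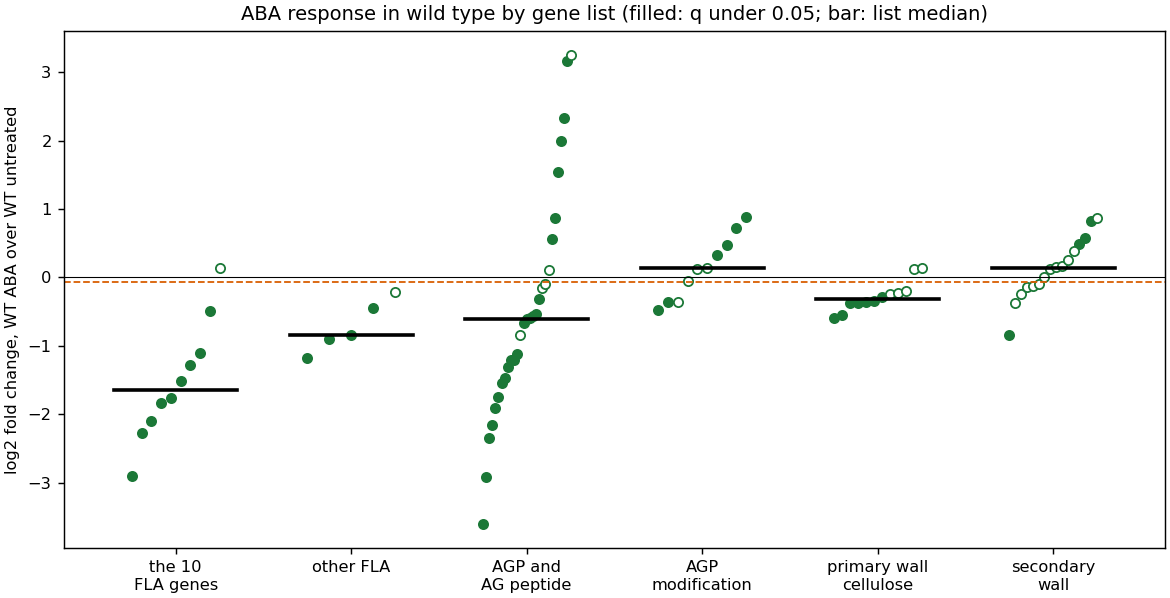
Deposited log2 fold change of each gene with ABA over untreated in wild type (y axis), by gene list (x axis), filled where the authors' q was under 0.05, with a bar at the list median and a dashed line at the median of all single-gene loci. The medians are -1.64 for the 10 FLA genes, -0.84 for other FLA genes, -0.61 for AGP genes, 0.13 for modifying enzymes, -0.31 for primary wall and 0.14 for secondary wall genes. The 10 FLA genes were chosen with these values known, so that nothing is read from their distance to the other lists. AT1G15190, of the FLA family and called higher, is in no list.

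Loci near the members' medians were sought by the Euclidean distance of their 3 log2 fold changes to those medians. The members themselves spread around these medians, from log2 -2.90 to 0.14 with ABA in wild type. The search covered 15856 single-gene loci with at least 1 FPKM in every group. The nearest were SHR at a distance of 0.08, JKD at 0.09, AT2G34190 at 0.11, AT1G64530 at 0.12 and GLK2 at 0.13 on the log2 scale. SHR and JKD encode regulators of root ground tissue, and GLK2 one of chloroplast development. SHR had 4.45 FPKM in rbm25-1 and 3.41 FPKM in wild type with ABA, and 9.54 FPKM in rbm25-1 and 10.3 FPKM in wild type without it, in the authors' deposited tables. Likeness over 3 comparisons that share groups is a description only.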

How the data were processed

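Per the submitters' processing notes, reads were handled with Trimmomatic 0.32, TopHat2 2.0.13, Cufflinks 2.2.1 and Cuffdiff on TAIR10. Per the file headers, the deposited gene tables give FPKM per group, a log2 fold change without pseudocount, a p-value and a q-value. The deposited splicing tables give PSI in percent, its difference and a p, held here as a score because 28, 28 and 33 damaged events (left out) carry PSI-like values there. The lowest FPKM in the higher group was 0.547. Whether replicates were separate cultures is not stated, so p-values may measure technical spread. Depth is unknown.

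The members, lists, motifs and domain groups were chosen with earlier results of these data known. Called means the authors' q under 0.05. Lists hold genes whose symbol matches RefSeq; named are at most 4 called genes a list, those with the largest changes, and the 5 nearest loci. Sequences came from the RefSeq genome TAIR10.1, in which 94.9% to 95.7% of deposited retained introns had GT-AG ends, with Python 3.11.15 and Biopython 1.88. Benjamini-Hochberg adjustment was tested on simulated data. One further marker list, whose calls went in both directions, is not reported here.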

Additional observations from a re-analysis of the deposited data

How the results depend on the processing

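The number of members called lower in untreated rbm25-1 (2) was 1 when adjusted within the table, where FLA8 no longer passed, and 0 at 2-fold or more. In rbm25-1 with ABA, 0 were higher (5 before) and 0 lower (1 before) at 2-fold or more. The median log2 fold change with ABA in wild type (-1.64) was -1.47 with 1 added to each FPKM, -1.77 at 1 FPKM or more in both groups and, as alternatives chosen after seeing the data, -1.80 without FLA10 and FLA11 and -1.38 less the median of loci of like length and GC. The last also gave 0.30 for the median of rbm25-1 with ABA (0.40). The cause was not tested. The other counts of members, and the other medians over all members, kept their direction and stayed within 1.5 times or 0.1 (log2). This does not cover the medians by domain, which kept their direction but in part moved further. For genes with a pair of domains, the median of rbm25-1 with ABA (0.64) was 0.45 with 1 added to each FPKM. With ABA in wild type their median (-1.68) was -1.35 after the length and GC correction. The single-domain median there (-1.53) was -1.36 with 1 added to each FPKM. In untreated seedlings the medians by domain stayed within 0.1, as did the single-domain median of rbm25-1 with ABA. Counts on values centred on a median of loci kept the deposited q. A call could be lost there only by a change of sign, so that their stability says little. No paired analysis was possible because each group is deposited as a single value, so no replicate could be left out either. Depth is unknown, so that no limit from it can be given.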

Other observations

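AT1G15190, annotated as of the FLA family but without an FLA symbol in the annotation, was called higher with ABA in wild type, where 9 of the 10 members were called lower and FLA11 was not called. It had 2.61 FPKM in wild type with ABA and 1.65 FPKM in untreated wild type (log2 0.66, q = 0.0224 in the authors' deposited table). In rbm25-1 with ABA it had 4.56 FPKM, against 2.61 FPKM in wild type with ABA (log2 0.80, q = 0.00106 in the authors' deposited table). Without ABA it had 1.96 FPKM in rbm25-1 and 1.65 FPKM in wild type (log2 0.25, q = 0.45 in the authors' deposited table).

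The identifiers of the deposited splicing tables did not always match the position of the event, as at FLA7. The junction lay outside the named gene in 370 of 9844 events (3.76%) for rbm25-1 against wild type without ABA, in 428 of 11158 (3.84%) with ABA, and in 411 of 10492 (3.92%) for wild type with ABA against untreated.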
